A study of Chlorocebus sabaeus with 6 samples.

Results

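Homeobox genes outside the 4 HOX clusters were examined in COS7 cells with and without the atlastins ATL2 and ATL3. A list of 45 genes was matched by symbol to the deposited table of 18050 genes, and 41 of them had a row. It covers homeobox genes of limb and craniofacial mesenchyme, the TALE cofactors (homeodomains with a 3-residue loop extension), the Iroquois (IRX) genes, SIX4 and SIX5, the LIM and CUT classes, and others. EN2, IRX1, IRX2 and MEOX2 were not analysed here. COS7 is a fibroblast-like line from African green monkey (Chlorocebus sabaeus) kidney, immortalised with SV40. The 3 DKO samples are COS7 cells labelled as an ATL2/3 knockout, and the 3 WT samples are unedited COS7 cells. Atlastins are GTPases in the membrane of the endoplasmic reticulum, whose tubules they join. The labels do not say how many knockout clones were used or whether samples came from separate cultures, so the spread that the p-values rest on may be technical. An effect of the knockout and a difference between clones cannot be told apart.

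Homeobox genes encode transcription factors that bind DNA through a homeodomain, a fold of 3 helices whose last helix lies in the major groove. Many are switched on in particular embryonic regions and fix regional identity there, as PITX1 does in the hindlimb and DLX genes do in the jaw. TALE proteins of the MEIS, PBX and PKNOX families are cofactors that bind DNA together with HOX and other homeodomain proteins. In the kidney and its precursors, EMX2 is needed for the ureteric epithelium of the mouse and LMX1B for podocytes.

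The libraries held between 14197344 and 15693049 estimated counts, with little difference between genotypes. Both targeted mRNAs were lower in DKO, ATL2 at 3.78 to 7.38 FPKM against 29.2 to 32.2 FPKM in WT, and ATL3 at 3.5 to 5.93 FPKM against 34.7 to 37.3 FPKM in WT. FPKM scales reads to transcript length and library size, so levels of different genes can be set side by side. DKO replicate 3 stood apart from DKO replicates 1 and 2 on the second principal component, which held 9.41% of the variance. Of 10 fibroblast markers 9 had a row: vimentin (VIM) was at 1318 FPKM in DKO and 1533 FPKM in WT, whereas THY1 had no counts and DCN, COL3A1 and COL1A2 at most 7 counts in a genotype. The summed level of this list was 1511 to 1562 FPKM in DKO and 3360 to 3451 FPKM in WT, with fibronectin (FN1) at 207 FPKM in DKO and 1838 FPKM in WT. That of 10 kidney tubule markers was 559 to 725 FPKM in DKO and 779 to 875 FPKM in WT. Most of it came from KRT8 (451 FPKM in DKO and 508 FPKM in WT, not called) and KRT18 (106 and 189 FPKM). On the same list CDH1 was at 0.0867 FPKM in DKO and 4.84 FPKM in WT, and EPCAM at 32 and 12.9 FPKM. Of these lists, 1 fibroblast marker was called higher and 3 lower, and 2 kidney tubule markers were called higher and 6 lower. Sums of other lists were 0.26 to 0.47 FPKM in DKO and 0.28 to 0.4 FPKM in WT for endothelium, and 13.6 to 15.1 FPKM in DKO and 14.1 to 15.9 FPKM in WT for leukocytes, of which CD68 gave nearly all. They were 29.9 to 46.6 FPKM in DKO and 12.4 to 13.5 FPKM in WT for neurons (SYT1 and RBFOX3 called higher and SNAP25 lower). For muscle they were 32.1 to 48.3 FPKM in DKO and 18.7 to 19.9 FPKM in WT. Of 5 muscle rows 3 were tested, with TNNT1 and ACTC1 called higher and DES not called. MYOG, below the filter on low counts, had 4 counts in DKO and 36 in WT. Without that filter it was lower in DKO (log2 fold change -3.03, edgeR adjusted p = 0.0088). The part of these marker differences in the results on homeobox genes was not tested. In bulk RNA, fewer cells that express a gene and less of its RNA per cell cannot be told apart.

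The homeobox genes went both ways in DKO cells. A gene is called at an edgeR adjusted p below 0.05, and fold changes are DKO over WT. Of the 41 genes, 34 passed the filter on low counts, and of these 13 were called higher, 13 lower and 8 not called, so 76.5% were called. Among all 13094 genes tested, 45.5% were called, 23.3% higher and 22.2% lower. At least 2-fold, 11 of the 34 were higher and 6 lower, where the shares among all tested genes at that limit were 9.83% higher and 12.1% lower, or 21.9% in either direction. The DKO and WT samples did not overlap in FPKM for 29 of the 34, against 63.2% of all tested genes; with 3 samples against 3, the smallest p of a two-sided exact permutation test is 0.1. The median log2 fold change of the 34 was -0.08 and the median size 1.18, against -0.01 and 0.47 over all tested genes. DLX3, PRRX2 and PKNOX2 passed the filter through a single genotype, so their difference is in part given by the filter. Without DKO replicate 3, 14 were called higher and 15 lower, among them all 26 of the full comparison in the same direction, where 74.6% of all tested genes were called.

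**Figure D1:**
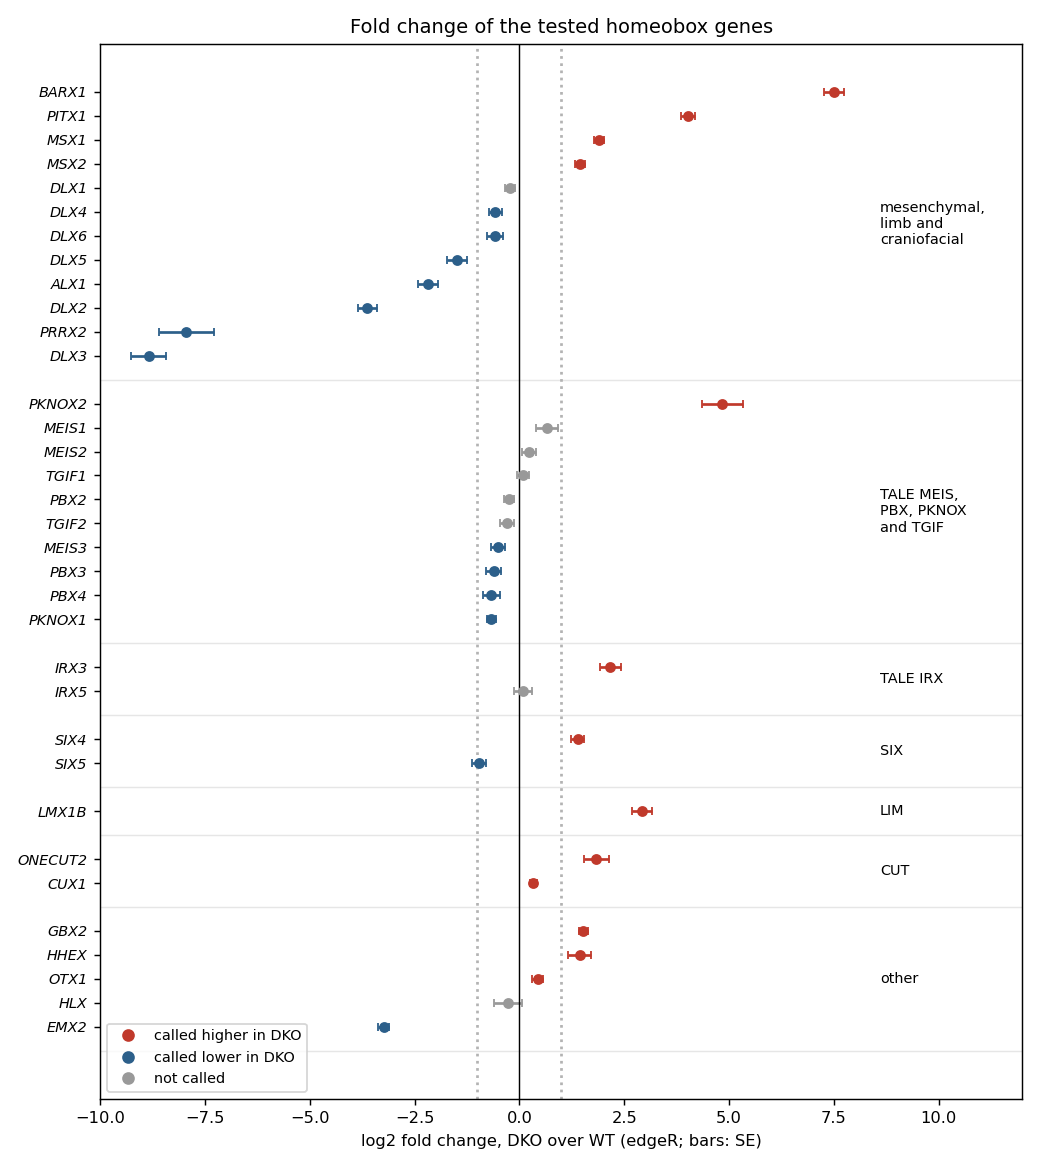
Log2 fold change, DKO over WT, of the 34 homeobox genes tested, by family, with SE bars from edgeR; dotted lines mark 2-fold. The mesenchymal genes spread from BARX1 at 7.50 to DLX3 at -8.84, while 9 of the 10 TALE cofactors lie within 2-fold; the points of PRRX2 and DLX3, with no DKO count and 1 DKO count, are fitted values and give no size.

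The make-up of the homeobox transcripts differed between the genotypes. The FPKM of all 41 genes together was 431, 419 and 434 in the DKO samples, against 220, 226 and 215 in the WT samples. BARX1 and PITX1 account for this difference: the sum of the other 39 genes was 208 ± 4.36 FPKM in DKO and 216 ± 5.28 FPKM in WT (SD, n = 3 each). In DKO cells BARX1, PITX1, GBX2, TGIF1 and CUX1 had the highest means, and the first 3 of them made up 59.6% of the sum, against 7.94% in WT. In WT cells the order was TGIF1, MEIS3, EMX2, CUX1 and PBX2, which together gave 21.3% of the sum in DKO and 53.8% in WT. A mean of at least 1 FPKM was reached by 27 genes in DKO and 25 in WT, and 11 of the 41 stayed below it in both.

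**Figure D2:**
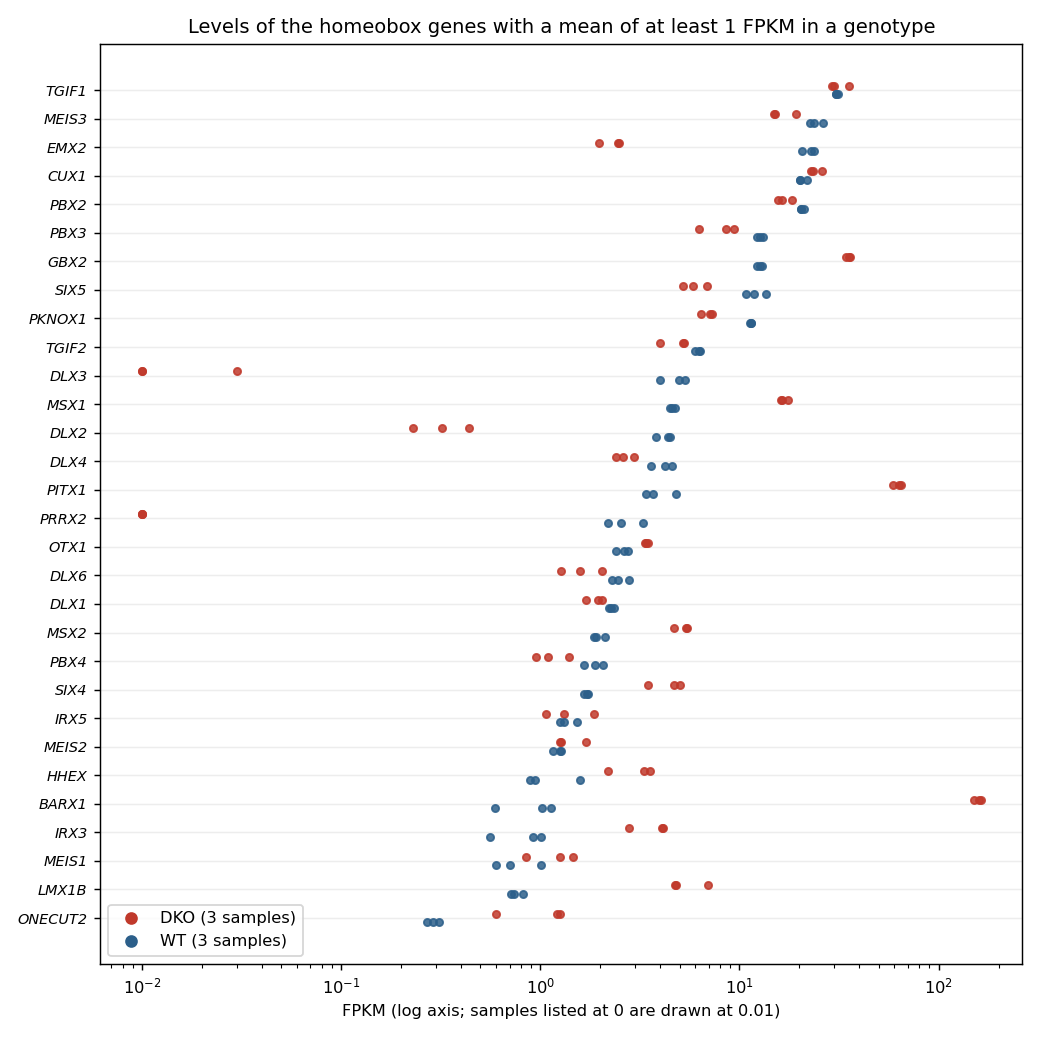
FPKM (log axis) in each of the 3 DKO and 3 WT samples for the 30 homeobox genes with a mean of at least 1 FPKM in a genotype, ordered by their WT mean; values of 0 are drawn at 0.01. BARX1 is the highest of these genes in DKO and among the lowest in WT, and EMX2, DLX2, DLX3 and PRRX2 lie far left of their WT points.

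BARX1, PITX1, MSX1 and MSX2, homeobox genes of mesenchyme and face, rose in DKO cells. BARX1 (gene ID 103219777), which patterns stomach mesenchyme and the jaw in the mouse, had 159, 151 and 162 FPKM in the DKO samples, against 1.02, 1.13 and 0.59 FPKM in the WT samples. The groups were far apart and the DKO samples close to each other, a difference of 7.50 on the log2 scale (SE 0.24, edgeR adjusted p = 4.4e-06). By mean FPKM it ranked 611 of the 18050 genes in DKO and 11590 in WT. The WT level rests on 53 estimated counts in all, against 9245 in DKO.

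PITX1 (gene ID 103244565), which sets hindlimb identity, had 65.1, 63.3 and 59.1 FPKM in DKO, against 4.79, 3.69 and 3.39 FPKM in WT. No DKO sample came near the WT range, and the difference was 4.02 on the log2 scale (SE 0.16, edgeR adjusted p = 6.8e-06). MSX1 and MSX2 encode closely related repressors that are targets of BMP signalling in the limb bud and the skull. MSX1 (gene ID 103246390) had 17.6, 16.3 and 16.1 FPKM in DKO, against 4.46, 4.57 and 4.76 FPKM in WT (log2 fold change 1.91, SE 0.12, edgeR adjusted p = 3.7e-05). MSX2 (gene ID 103245008) had 5.4, 5.48 and 4.7 FPKM in DKO, against 2.1, 1.87 and 1.91 FPKM in WT (1.45, SE 0.13, edgeR adjusted p = 0.00015). Both paralogs were thus higher in every DKO sample than in any WT sample, where 63.2% of all tested genes had groups without overlap. MSX1 gave most of the pair's summed level in each genotype, 76.2% in DKO and 70.1% in WT.

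**Figure D3:**
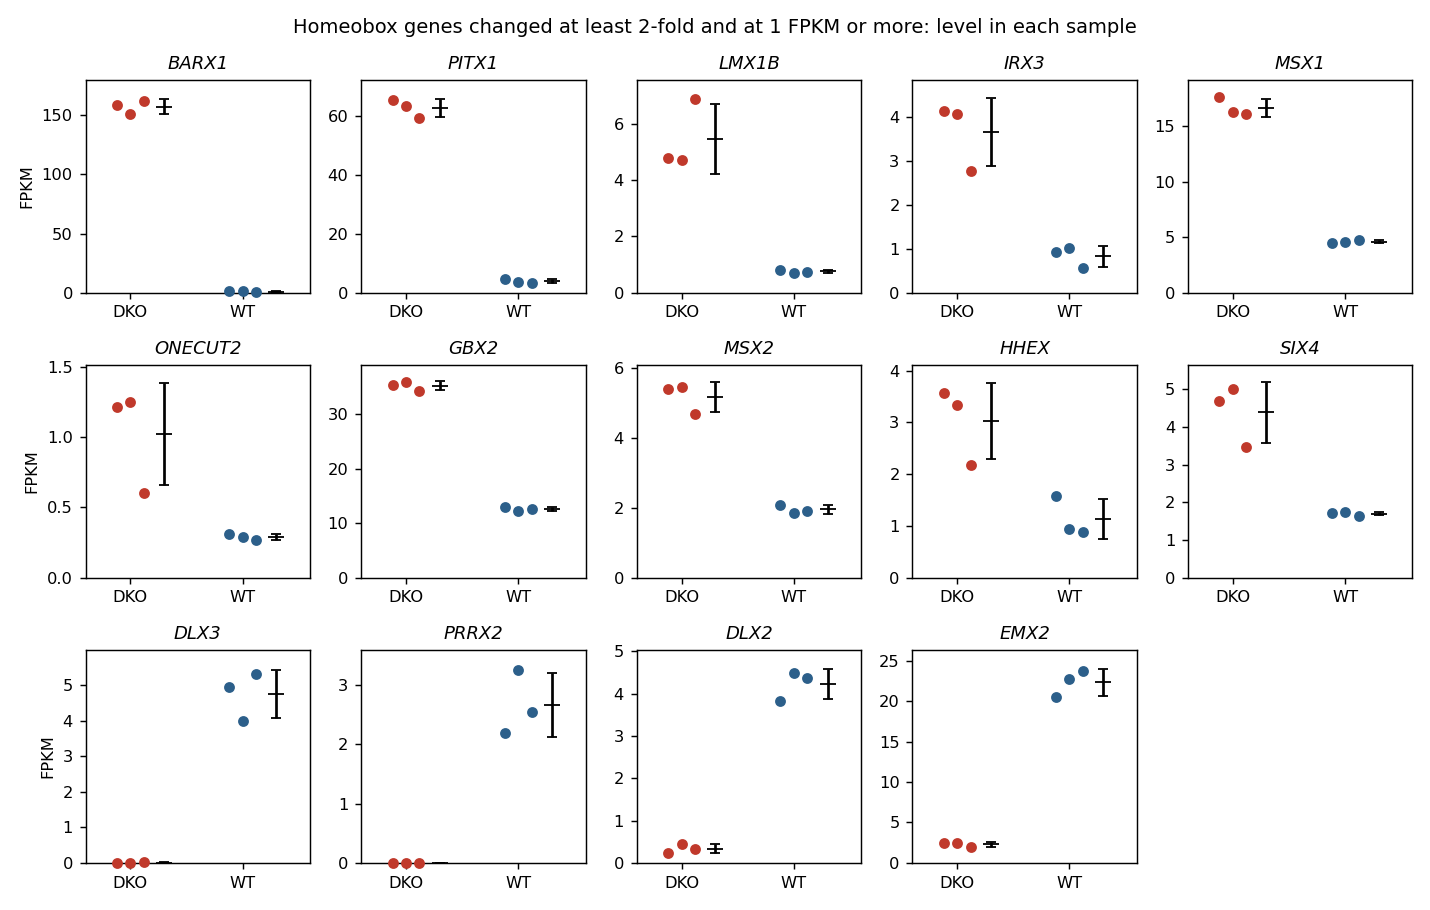
FPKM in each sample of the 14 homeobox genes called at 2-fold or more with a mean of at least 1 FPKM in a genotype; points are samples and the black mark is the mean with its SD (n = 3). The upper 10 panels, from BARX1 to SIX4, are higher in all DKO samples and the last 4, DLX3, PRRX2, DLX2 and EMX2, lower.

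PRRX2 and ALX1 fell in DKO cells, while PRRX1, ALX4, SHOX2 and BARX2 were too low to pass the filter. PRRX2 (gene ID 103239761), a marker of limb and craniofacial mesenchyme, had no count in any DKO sample, against 2.19, 3.26 and 2.55 FPKM in WT. Set against a floor of 3 counts per library, it was at least 10.2-fold lower in DKO (edgeR adjusted p = 0.00058). ALX1, which acts in frontonasal mesenchyme, was at 0.133 ± 0.0451 FPKM in DKO and 0.633 ± 0.0379 FPKM in WT (SD, n = 3 each), which is -2.18 on the log2 scale (SE 0.24, edgeR adjusted p = 0.00045). Its relatives PRRX1 and ALX4 had no count in DKO and 8 and 5 counts over the WT samples, below the filter. SHOX2, a gene of the proximal limb, had 21 counts in DKO and 11 in WT and was not tested, and BARX2, the paralog of BARX1, had no count in DKO and 1 count in WT. Without the filter none of these 4 was called either (edgeR adjusted p = 0.053 for PRRX1, 0.071 for ALX4, 0.16 for SHOX2 and 0.43 for BARX2). The 12 tested genes of the mesenchymal group comprised 4 called higher, 7 lower and 1 not called, where 23.3% of all tested genes were higher and 22.2% lower.

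The DLX genes lie in neighbouring pairs, and DLX2, DLX3, DLX4 and DLX6 fell in DKO cells. DLX proteins pattern the jaw along its length and act in forebrain interneurons, skin and placenta. The 6 rows named DLX1 to DLX6 summed to 6.71 ± 0.476 FPKM in DKO and 18.5 ± 0.341 FPKM in WT (SD, n = 3 each). Of these rows 5 were called lower, where 22.2% of all tested genes were, and 1 of the 5 is the row named DLX5, whose identity is uncertain. Differences within a pair were not tested.

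In the pair DLX1 and DLX2, DLX2 (gene ID 103217317) had 0.23, 0.44 and 0.32 FPKM in DKO, against 3.82, 4.48 and 4.37 FPKM in WT (log2 fold change -3.63, SE 0.22, edgeR adjusted p = 3.5e-05). DLX1 had 1.94, 2.03 and 1.69 FPKM in DKO, against 2.26, 2.35 and 2.22 FPKM in WT. Its samples did not overlap between genotypes, but it was not called (log2 fold change -0.23, SE 0.12, edgeR adjusted p = 0.16). In the pair DLX3 and DLX4, DLX3 (gene ID 103242954), which acts in placenta, hair and teeth, had 0, 0 and 0.03 FPKM in DKO, against 4.95, 4 and 5.31 FPKM in WT. A single count in DKO replicate 3 stood against 657 in WT, a depth-scaled ratio of WT to DKO of 644 with an exact 95% counting interval from 115 to 25482 (edgeR adjusted p = 1.2e-05). Without DKO replicate 3 no count remained, and DLX3 was at least 69.2-fold lower. Its neighbour DLX4 stayed at 2.64 ± 0.284 FPKM in DKO and 4.14 ± 0.501 FPKM in WT (SD, n = 3 each; log2 fold change -0.58, SE 0.16, edgeR adjusted p = 0.021).

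In the pair DLX5 and DLX6, DLX6 had 1.58, 2.04 and 1.27 FPKM in DKO, against 2.45, 2.28 and 2.78 FPKM in WT (log2 fold change -0.58, SE 0.19, edgeR adjusted p = 0.043). The row named DLX5 had 0.21, 0.15 and 0.27 FPKM in DKO, against 0.61, 0.6 and 0.62 FPKM in WT (-1.48, SE 0.24, edgeR adjusted p = 0.0022). Its gene ID, 103226510, is listed by RefSeq (assembly mChlSab1.0.hap1) as a non-coding transcript that overlaps DLX6, and DLX5 has another ID there. The value therefore cannot be assigned to the DLX5 protein-coding transcript, and reads in the overlap could have been given to either row. Of the summed DLX level, DLX4, DLX1 and DLX6 gave 39.4%, 28.1% and 24.3% in DKO, against 22.4%, 12.3% and 13.5% in WT, while DLX3 and DLX2 gave 0.149% and 4.92% in DKO, against 25.7% and 22.8% in WT.

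**Figure D4:**
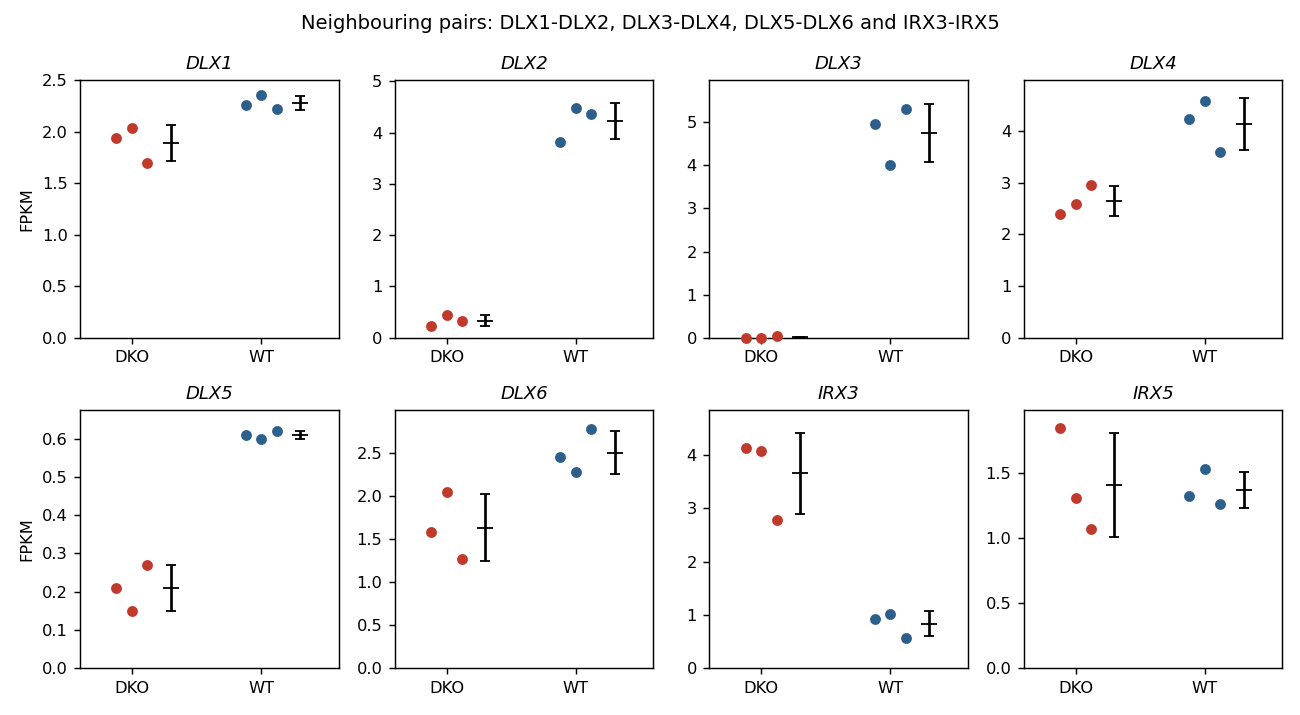
FPKM in each sample of the neighbouring DLX1 and DLX2, DLX3 and DLX4, DLX5 and DLX6, and IRX3 and IRX5; points are samples and the black mark is the mean with its SD (n = 3). DLX2 and DLX3 are near 0 in DKO beside DLX1 and DLX4, which keep most of their WT level, and IRX3 is higher in DKO beside an overlapping IRX5.

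Of the 10 TALE cofactors, all but PKNOX2 were detected in every sample of both genotypes and lay within 2-fold. All 10 were tested: 1 was called higher, 4 lower and 5 not called, with a median log2 fold change of -0.28. The share called, 50%, is near the 45.5% of all tested genes. The groups did not overlap in FPKM for 7 of the 10, which is near the 63.2% of all tested genes. Their summed level was 88.7 ± 5.39 FPKM in DKO and 110 ± 2.86 FPKM in WT (SD, n = 3 each).

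MEIS3 was the main MEIS gene, with 86.3% of the MEIS level in DKO and 92.4% in WT. It had 14.9, 15.1 and 19.2 FPKM in DKO, against 23.8, 26.4 and 22.6 FPKM in WT (log2 fold change -0.51, SE 0.17, edgeR adjusted p = 0.043). MEIS1 had 1.25, 1.46 and 0.85 FPKM in DKO, against 1.01, 0.6 and 0.7 FPKM in WT, and MEIS2 had 1.7, 1.27 and 1.26 FPKM in DKO, against 1.16, 1.27 and 1.26 FPKM in WT. Their groups overlapped and neither was called (edgeR adjusted p = 0.083 and 0.31). Without DKO replicate 3, the lowest DKO sample for MEIS1, that gene was called higher (log2 fold change 0.82, edgeR adjusted p = 0.0014). In that fit 74.6% of all tested genes were called.

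PBX proteins are the direct partners of HOX proteins on DNA. PBX3 had 9.35, 8.56 and 6.26 FPKM in DKO, against 13.1, 12.7 and 12.3 FPKM in WT (log2 fold change -0.62, SE 0.18, edgeR adjusted p = 0.03), and PBX4 had 0.95, 1.09 and 1.39 FPKM in DKO, against 2.07, 1.89 and 1.66 FPKM in WT (-0.67, SE 0.20, edgeR adjusted p = 0.028). PBX2, the most abundant of these, had 16.3, 15.5 and 18.3 FPKM in DKO, against 21, 20.4 and 20.3 FPKM in WT, without overlap, but was not called (-0.26, SE 0.12, edgeR adjusted p = 0.13). Without DKO replicate 3, where 74.6% of all tested genes were called, it was called lower (-0.37, edgeR adjusted p = 1.2e-06). With limma on log2(FPKM + 1) it was called (-0.29, adjusted p = 0.047). All 3 PBX genes were thus lower in every DKO sample than in any WT sample, where 63.2% of all tested genes had groups without overlap. Their summed level was 25.9 ± 0.706 FPKM in DKO and 35.2 ± 1.01 FPKM in WT (SD, n = 3 each).

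PKNOX1 and PKNOX2 (also called PREP) pair with PBX proteins. PKNOX1 had 7.11, 7.27 and 6.42 FPKM in DKO, against 11.3, 11.4 and 11.4 FPKM in WT, with WT samples that hardly differed (log2 fold change -0.67, SE 0.11, edgeR adjusted p = 0.0022). PKNOX2 was the 1 cofactor called higher, at a low level: 0.45, 0.48 and 0.32 FPKM in DKO, against 0, 0.02 and 0.02 FPKM in WT. It had 65 counts in DKO and 2 in WT, a depth-scaled ratio of 33.1 with an exact 95% counting interval from 8.81 to 279 (edgeR adjusted p = 0.00028). TGIF1 and TGIF2 are repressors that bind SMAD proteins and retinoid response elements. TGIF1 had 30, 29.3 and 35.6 FPKM in DKO, against 30.7, 31.4 and 30.6 FPKM in WT (log2 fold change 0.09, SE 0.14), and TGIF2 had 3.98, 5.21 and 5.26 FPKM in DKO, against 6.29, 6.33 and 6 FPKM in WT (-0.30, SE 0.16). Neither was called (edgeR adjusted p = 0.64 and 0.16). Without DKO replicate 3, where 74.6% of all tested genes were called, TGIF2 was called lower (-0.41, edgeR adjusted p = 0.00034).

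**Figure D5:**
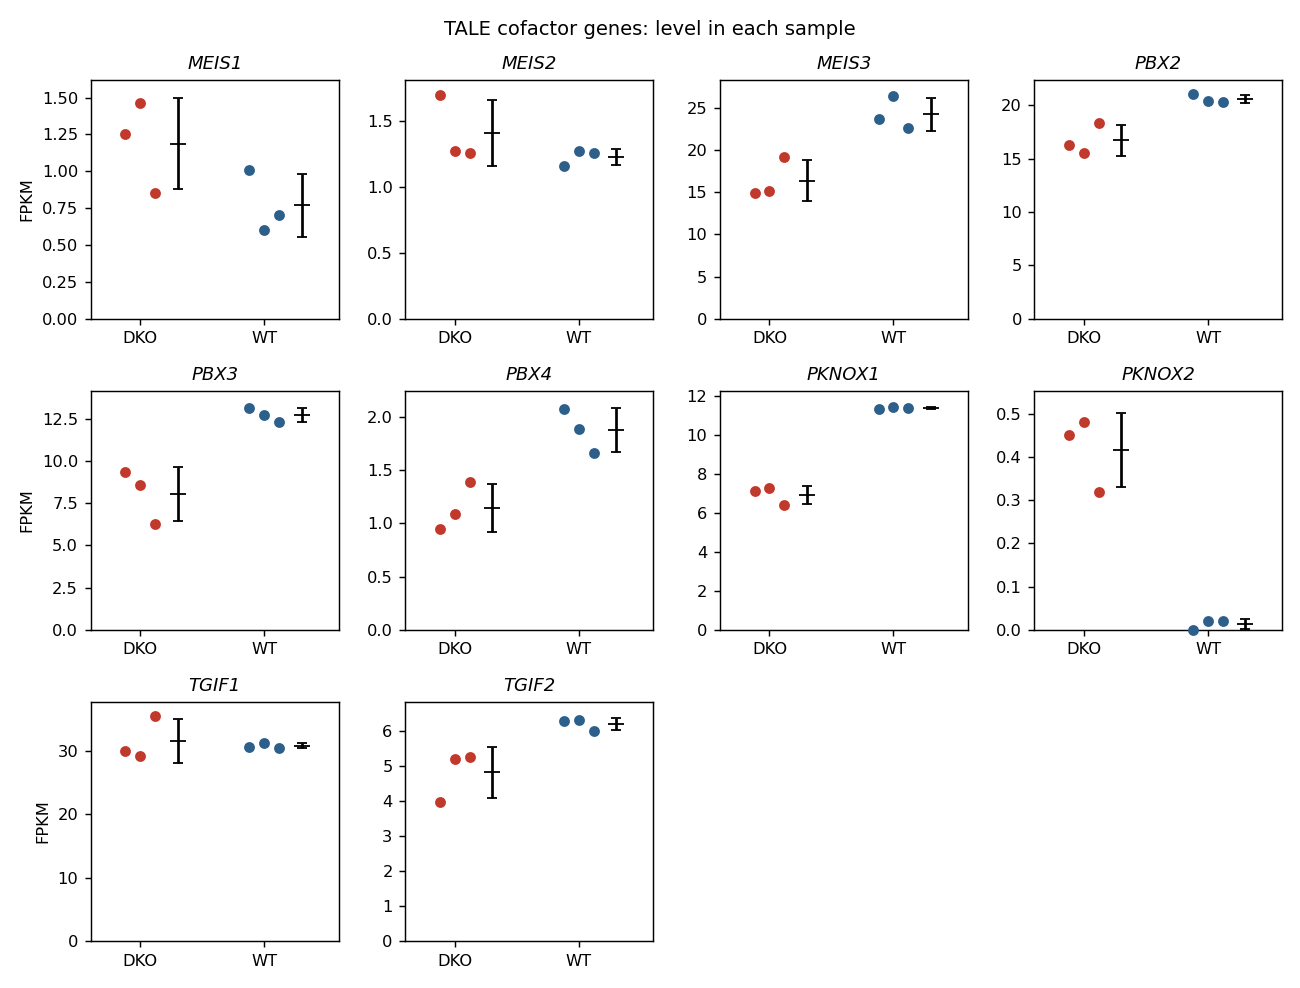
FPKM in each sample of the 10 TALE cofactor genes; points are samples and the black mark is the mean with its SD (n = 3). PBX2, PBX3, PBX4, PKNOX1, MEIS3 and TGIF2 are lower in every DKO sample than in any WT sample. PKNOX2 is higher at under 0.5 FPKM, and TGIF1, MEIS1 and MEIS2 overlap. The groups do not overlap for 63.2% of all tested genes.

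Of the Iroquois genes, which pattern the nephron, the heart and the neural tube, IRX3 rose and its neighbour IRX5 was not called. IRX3 (gene ID 103232998) had 4.13, 4.08 and 2.78 FPKM in DKO, against 0.92, 1.01 and 0.56 FPKM in WT (log2 fold change 2.17, SE 0.25, edgeR adjusted p = 0.00049). IRX5 had 1.85, 1.31 and 1.07 FPKM in DKO, against 1.32, 1.53 and 1.26 FPKM in WT, with DKO samples on both sides of the WT samples (0.08, SE 0.22, edgeR adjusted p = 0.8). IRX3 was the 1 gene of the 41 with estimated counts that were not whole numbers.

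SIX4 and SIX5, of a family whose proteins act with EYA cofactors in muscle, kidney and sensory organs, moved in opposite directions. SIX4 (gene ID 103229119) had 4.69, 5 and 3.47 FPKM in DKO, against 1.71, 1.74 and 1.65 FPKM in WT (log2 fold change 1.39, SE 0.15, edgeR adjusted p = 0.00043). SIX5, which lies beside the myotonic dystrophy kinase gene in the human genome, had 5.83, 5.2 and 6.86 FPKM in DKO, against 11.8, 13.6 and 10.8 FPKM in WT (-0.97, SE 0.17, edgeR adjusted p = 0.0034). The groups did not overlap for either gene, as for 63.2% of all tested genes. DKO replicate 3 was the DKO sample nearest to WT in both.

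LMX1B (gene ID 103239858), a LIM homeobox gene needed for dorsal limb identity and for podocytes and mutated in human nail-patella syndrome, rose. It had 4.78, 4.72 and 6.91 FPKM in DKO, against 0.82, 0.71 and 0.74 FPKM in WT (log2 fold change 2.92, SE 0.25, edgeR adjusted p = 0.00012). LHX9, a LIM gene of the gonad, had 4 counts in each genotype and was not tested. Of the CUT genes, ONECUT2 (gene ID 103244223), a liver and pancreas regulator, had 1.21, 1.25 and 0.6 FPKM in DKO, against 0.31, 0.29 and 0.27 FPKM in WT (1.84, SE 0.30, edgeR adjusted p = 0.0023). DKO replicate 3 had 0.488 times the mean of the other DKO samples for this gene, yet lay above all WT samples. CUX1, a widely expressed repressor, had 23.3, 22.8 and 25.95 FPKM in DKO, against 20.15, 21.8 and 20.1 FPKM in WT (0.33, SE 0.09, edgeR adjusted p = 0.023). With limma on log2(FPKM + 1) it was not called (0.20, limma adjusted p = 0.12). CUX2, its neuronal paralog, had 3 counts in DKO and 5 in WT and was not tested.

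EMX2 fell and GBX2 and HHEX rose among the remaining genes. EMX2 (gene ID 103216586), which is required in the mouse for the kidney, the genital tract and the cerebral cortex, had 2.45, 2.47 and 1.98 FPKM in DKO, against 20.5, 22.8 and 23.7 FPKM in WT. On the log2 scale the difference was -3.24 (SE 0.14, edgeR adjusted p = 7.7e-06), and among the 41 genes its mean ranked 20 in DKO and 3 in WT. The RefSeq annotation lists a non-coding gene overlapping EMX2. Since no strand is stated for the counting, reads in any exon that the genes share cannot be told apart. Overlap was taken over whole gene spans, so whether exons are shared is not known. The same holds for 9 others of the 41 genes, DLX4, DLX5, DLX6, ALX4, SHOX2, PBX4, PKNOX2, CUX1 and HLX, which also overlap an annotated gene. GBX2 (gene ID 103218145), which sets the border of midbrain and hindbrain, had 35.4, 35.9 and 34.3 FPKM in DKO, against 13, 12.2 and 12.7 FPKM in WT (1.53, SE 0.10, edgeR adjusted p = 5e-05). HHEX (gene ID 103216269), a repressor of liver, thyroid and blood precursors, had 3.56, 3.33 and 2.18 FPKM in DKO, against 1.58, 0.94 and 0.89 FPKM in WT (1.44, SE 0.28, edgeR adjusted p = 0.005).

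OTX1, a forebrain gene, had 3.34, 3.39 and 3.47 FPKM in DKO, against 2.64, 2.76 and 2.39 FPKM in WT (log2 fold change 0.44, SE 0.13, edgeR adjusted p = 0.032). HLX, which acts in mesenchyme of gut and liver, had overlapping groups, 0.67, 0.35 and 0.67 FPKM in DKO against 0.69, 0.92 and 0.5 FPKM in WT (-0.27, SE 0.34, edgeR adjusted p = 0.55). MEOX1, a somite gene, had 1 count in DKO and 5 in WT and was not tested.

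Leaving out single libraries ended 7 of the 26 calls. The 17 genes called at 2-fold or more, and SIX5 and PKNOX1, stayed called whichever library was left out. The other 7 called genes lost the call when any of several libraries was left out: CUX1 and OTX1 among those higher (edgeR adjusted p up to 0.12 and 0.14), and DLX4, DLX6, MEIS3, PBX3 and PBX4 among those lower (edgeR adjusted p up to 0.082, 0.15, 0.13, 0.1 and 0.11). Leaving out WT replicate 1 or WT replicate 2 left 8 genes called lower in place of 13, while the share called over all tested genes was 32.2% and 33% in place of 45.5%. The fold changes of these 7 genes kept their sign whichever sample was left out. On the log2 scale that of CUX1 lay between 0.29 and 0.36. Those of PBX3 and MEIS3 moved more, between -0.73 and -0.44 and between -0.69 and -0.43. Of 32 tested genes with a level in DKO replicates 1 and 2, DKO replicate 3 lay within 1.5-fold of their mean for 28, and the others were ALX1 at 1.64 times that mean and ONECUT2, MEIS1 and HHEX at 0.488, 0.627 and 0.633 times it.

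Homeobox genes beyond the 45 were also changed often. Of 131 other non-HOX homeobox genes listed, 94 had a row and 42 were tested, with 15 called higher, 16 lower and 11 not called (73.8% called) and a median log2 fold change of -0.12. LHX1, a kidney gene that is also on the tubule marker list, was at 0.09 ± 0.0557 FPKM in DKO and 33.9 ± 2.04 FPKM in WT (SD, n = 3 each), and POU3F3, another gene of the developing nephron, was at 0 in all DKO samples against 3.49 to 4.07 FPKM in WT. TSHZ3 and TSHZ1, zinc finger homeobox genes, were at 0.00333 and 0.03 FPKM in DKO and 1.84 and 1.81 FPKM in WT. ONECUT1, the paralog of ONECUT2, also rose, with 1.74 ± 0.474 FPKM in DKO and 0.03 ± 0.0173 FPKM in WT (log2 fold change 5.89, SE 0.41, edgeR adjusted p = 5.4e-05). A row was found for 38 HOX genes, of which 37 were tested, with 9 called higher, 24 lower and 4 not called (89.2% called, against the same 45.5%). HOXA3 (0.343 FPKM in DKO and 12.6 FPKM in WT) and HOXB9 (2.9 FPKM in DKO and 18.4 FPKM in WT) were among those lower.

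Partner proteins of the homeodomain factors were called at the rate of all genes. Of 28 listed, 24 had a row and 22 were tested, with 4 called higher, 6 lower and 12 not called, or 45.5%, the same share as over all tested genes. Of the Groucho corepressors (TLE), which MSX and HHEX proteins recruit, TLE4 was higher, with 4.24 ± 0.278 FPKM in DKO and 0.477 ± 0.115 FPKM in WT (SD, n = 3 each; log2 fold change 3.20, SE 0.21, edgeR adjusted p = 4.7e-05), and the other 4 were not called. Of the EYA proteins, cofactors of the family of SIX4 and SIX5, EYA4 was higher (7.11 FPKM in DKO and 3.45 FPKM in WT, log2 fold change 1.08, SE 0.15), whereas EYA2 was at 1 count in DKO and 2.11 FPKM in WT. The LIM partners LMO4 (13.1 FPKM in DKO and 27.1 FPKM in WT) and LMO1 (0.07 FPKM in DKO and 1.25 FPKM in WT) were lower, as was SIN3A, a corepressor that TGIF recruits (11.6 FPKM in DKO and 18.8 FPKM in WT).

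The genes next to the changed homeobox genes were set beside them. In a comparison chosen after the values were seen, the nearest tested coding gene on each side was taken from the RefSeq order for the 14 genes given in every sample. Apart from neighbours among the 41, there were 25 such pairs, of which 5 were called in the direction of the homeobox gene, 3 in the opposite direction and 17 not called, where 45.5% of all tested genes were called. On either side of BARX1, PHF2 was at 27.9 FPKM in DKO and 15 FPKM in WT and PTPDC1 at 0.407 FPKM in DKO and 0.157 FPKM in WT, log2 fold changes of 0.91 and 1.33 (edgeR adjusted p = 0.0003 and 0.016) beside the 7.50 of BARX1. PITX1 lay between H2AFY and CATSPER3 (0.21 and 0.09) and LMX1B between MVB12B and ZBTB43 (-0.31 and -0.09), all not called. CYTL1 beside MSX1 went the other way, at 2.26 FPKM in DKO and 7.39 FPKM in WT (-1.65, SE 0.19, edgeR adjusted p = 0.00055).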

How the data were processed

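The authors deposited 1 table of 18050 genes with, per the file headers, estimated counts and FPKM per sample; its 9 columns of other samples were not used. Per the submitters' processing notes, the tools included HISAT and Bowtie2; which program counted reads, with which strand setting and on which build, is not given in the sources used here. Estimated counts were rounded and tested across the whole table with edgeR 4.0.16 in R 4.3.3 (quasi-likelihood test, TMM, default filter by group with a minimum count of 10, Benjamini-Hochberg over 13094 genes). SE is the size of the log2 fold change over the root of F. FPKM values are the deposited ones. Counting intervals and the floor of 3 counts per library cover counting error only. The genes were matched by symbol, and all 41 IDs occur in RefSeq, which gave neighbours and overlaps only. No sequence was at hand. Some items are not reported here. The genes and lists were chosen with earlier results of these data known. Genes called at 2-fold or more with at least 1 FPKM are given in every sample; of each other list up to 6 called genes with at least 1 FPKM could be named by smallest adjusted p. Alternatives were other normalizations, filters and thresholds, DESeq2 1.42.0, limma 3.58.1 on log2 FPKM, a replicate block and leaving out each sample. The tests were tested on simulated data. Figures were drawn with matplotlib 3.10.9.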

Additional observations from a re-analysis of the deposited data

How the results depend on the processing

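No gene changed direction in a call under any of the 15 refits. Of the 26 called genes, 19 kept their call in all of them. The other 7 all lost it with the replicate block. CUX1 also lost it with limma on log2 FPKM, OTX1 with DESeq2, and DLX6 with DESeq2 and without the filter on low counts. The count called higher, 13, ranged from 11 to 14 when a sample was left out, and the count called lower, 13, from 8 to 15. The lower count was 8 with the replicate block, 8 at an adjusted p below 0.01 and 6 at 2-fold or more. The labels do not say that the replicate number pairs samples. The deviations of same-numbered samples correlated at 0.02, -0.28 and -0.29. Within groups of 3 such deviations depend on each other, so these values cannot decide whether samples were paired. The replicate block is given as an alternative. It left 4485 of all tested genes called (34.3%). With limma on log2(FPKM + 1) 12 genes were higher and 14 lower, and with DESeq2 12 and 12. Without the filter, none of the 7 genes below it was called by edgeR. Leaving out DKO replicate 3 added 3 calls, MEIS1 higher and PBX2 and TGIF2 lower, of which limma on log2 FPKM also called PBX2. Without that sample 74.6% of all tested genes were called.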
